A study of Mus musculus with 7 samples.

Results

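The comparison set the 3 RNA-seq libraries whose descriptions carry the number 4 against the 4 libraries that carry the numbers 2 and 3, out of 7 libraries in all. The source label of every library is EML (Erythroid-Myeloid-Lymphoid) cells, a mouse multipotent blood precursor line that holds CD34-negative and CD34-positive cells. Numbers 2 and 3 gave 1 CD34-negative and 1 CD34-positive library each, and number 4 gave 2 CD34-negative libraries (one described as 4, the other as 4a) and 1 CD34-positive library. The CD34 group was a covariate of the comparison. Every library carries the same labels: strain C57BL/6, tissue bone marrow, total RNA, an age of postnatal day 14.7, and cells sorted as Annexin V-negative, which leaves out apoptotic cells. The shared protocol text also speaks of fresh bone marrow and fetal liver cells. The titles name the groups by CD34, whereas the genotype label reads CD43. The labels do not say how the number-4 libraries were made or whether the numbers mark separate cultures. The p-values measure only how far these libraries scatter, possibly for technical reasons, and the description number and anything done together with it cannot be told apart.

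A messenger RNA usually ends in a poly(A) tail, and many library protocols select RNA by that tail. Replication-dependent histone messages end in a stem-loop instead, while small nucleolar RNAs (guides for modifying ribosomal RNA), Rmrp and Rpph1 (the RNA parts of the RNase MRP and RNase P enzymes) carry no tail in their mature form. Spliced messages copied back into the genome leave single-exon copies, called processed pseudogenes or retrogenes, whose sequence resembles the spliced parent. Reads from such a parent can match more than 1 place in the genome.

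The unit is FPKM, a fragment count divided by transcript length and by the total of its own library. Differences are number 4 minus numbers 2 and 3 on the log2(FPKM + 1) scale, tested with limma and adjusted by the Benjamini-Hochberg method over the 9259 genes that reached 1 FPKM in at least 3 libraries; "higher" and "lower" mean an adjusted p under 0.05. Values by library are given CD34-negative first within each number, and for number 4 in the order 4, 4a and CD34-positive. Of these genes 549 (5.93%) were higher and 2842 (30.7%) were lower in number 4, with a median difference of -0.29. That split depended on scaling: it was 1439 (15.5%) against 1455 (15.7%) with median-ratio scaling, where the median became 0.01, and 2867 (30.9%) against 706 (7.6%) when ribosomal protein and small RNA rows were left out of the totals. With no filter on low values it was 630 (4.77%) against 2607 (19.7%) of 13221 genes, with a median of -0.03. Leaving out any 1 library other than the number-3 CD34-positive one moved the higher count by over 1.5 times, to between 69 and 957; 69 were higher and 995 lower without the CD34-positive number-4 library, and 1858 were lower without 4a. With number 3 as a term of its own, a replicate block that compares number 4 with number 2, 2275 genes were higher and 3509 lower. Number 3 minus number 2 had a median of 0.15 over all tested genes, and genes that differ between those numbers were not counted. Summed FPKM ran from 551669 to 733955 in numbers 2 and 3 and from 260352 to 432027 in number 4, while 8606 to 9117 and 8949 to 9092 genes reached 1 FPKM. Number 4 lay apart from the rest on principal component 1, which held 67.1% of the variance. Defining markers of hepatocytes, stroma and endothelium, and macrophages (Alb, Ttr, Col3a1, Dcn, Kdr and C1qa among them) summed to under 1 FPKM in every library. Other genes on the wider lists for such cells were present: Vim at 299.6 to 1575 FPKM, Pecam1 at 36.4 to 96.6, Trf at 35.1 to 197 and Cd68 at 3.48 to 12.3. Summed mast cell markers ran from 1646 to 10409 FPKM in number 4 and from 2124 to 2548 in the others. Cd34 was higher in the CD34-positive library within each number.

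**Figure D1:**
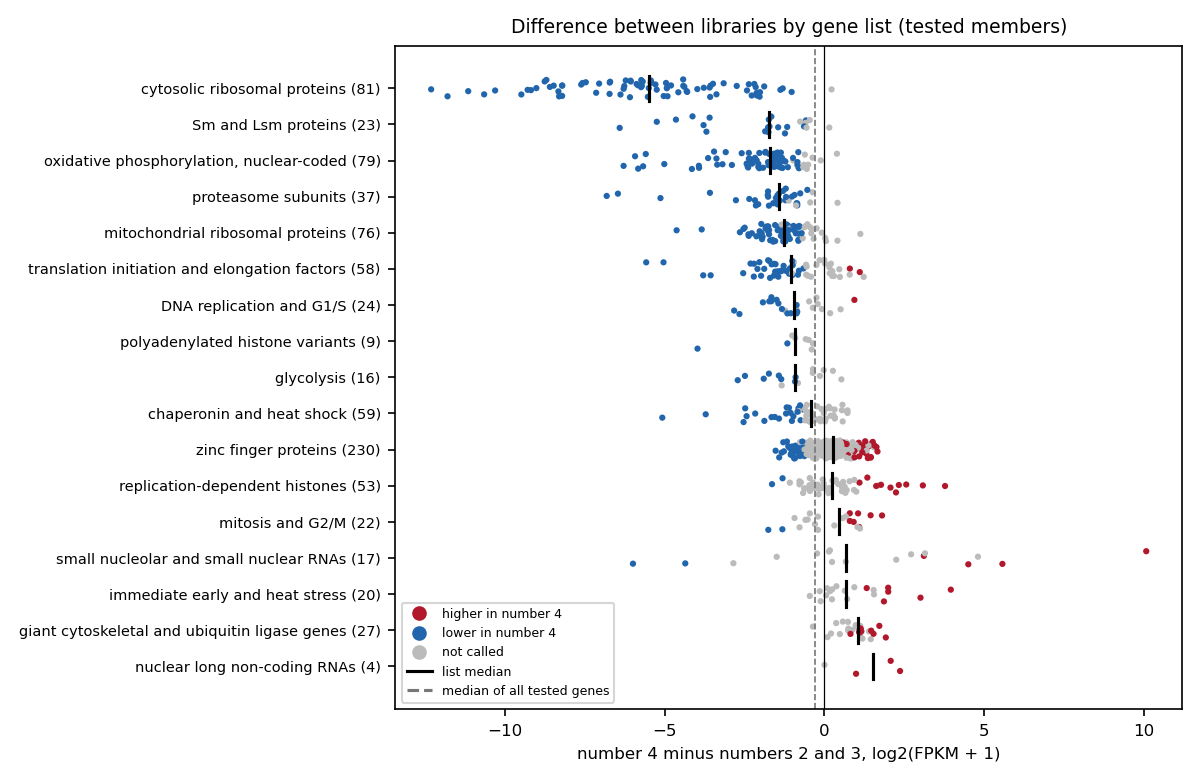
Difference between number 4 and numbers 2 and 3 (x axis, log2(FPKM + 1)) for every tested member of 17 gene lists (y axis, number of tested members in brackets), with list medians as black bars and the median of all tested genes, -0.29, as a dashed line. Cytosolic ribosomal proteins lie farthest to the left with a median of -5.50, and giant genes and nuclear long non-coding RNAs lie to the right with medians of 1.06 and 1.53.

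Genes of the cytosolic ribosome, which builds all cell proteins, differed most as a group. Of 83 rows listed 81 passed the filter, and 80 of them were lower in number 4, against a background of 30.7%, with a median of -5.50. Ribosomal protein rows held 38.6, 34.9, 30.8 and 28.9% of summed FPKM in the 4 number-2 and number-3 libraries and 2.43, 4.41 and 3.93% in number 4. The means were 33.3 ± 4.35% (SD, n = 4) and 3.59 ± 1.04% (SD, n = 3), and the 2 sets did not overlap (two-sided exact permutation test, p = 0.0571, the smallest this design allows; adjusted p = 0.0571 over 6 shares).

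Rps12, a protein of the small ribosomal subunit, stood at 7909 and 7512 FPKM in the number-2 libraries, 6299 and 5705 in number 3 and 1.49, 0.989 and 0.529 in number 4. Its difference was -11.80 (SE 0.23, adjusted p = 7.2e-07). Rpl12, of the large subunit, stood at 5114 and 3769.5 FPKM in the number-2 libraries, 3352 and 2731 in number 3 and 1.49, 1.48 and 1.07 in number 4. The libraries of each set lay close together for both genes and the sets lay far apart. The exception was Rpl3l, a paralog of Rpl3, with 0.362 and 1.31 FPKM in the number-2 libraries, 1.46 and 2.40 in number 3 and 0.984, 0.372 and 3.84 in number 4 and a difference of 0.22 (SE 0.33, adjusted p = 0.62). At the other end of the lower genes, Rpl4 had a difference of -1.03 (SE 0.31, adjusted p = 0.037), which turned to 1.31 under quantile normalization; with that setting 69 members were lower and 1 was higher.

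Most ribosomal protein rows share sequence with other places in the genome: over their members, the median share of 50-base windows found at another locus was 43.9%. Only 2 of the 81 tested members had no shared window, so members with and without shared sequence could not be compared within the list. The following stretch of Rps12 coding sequence, on chromosome 10, is shown because it was found in 21 other genes (GENCODE vM21 transcripts, mm10).
Rps12: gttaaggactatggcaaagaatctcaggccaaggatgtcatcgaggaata

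Other short, abundant housekeeping messages were lower as well. Of 79 nuclear-coded oxidative phosphorylation subunits, which carry out mitochondrial respiration, 69 were lower and 0 higher, with a median of -1.69. Atp5g2, a subunit of the ATP synthase, stood at 1007 and 793 FPKM in the number-2 libraries, 781 and 667 in number 3 and 14.5, 18 and 15.7 in number 4, a difference of -5.60 (SE 0.20, adjusted p = 5.4e-06). Among members with no shared window, 35 of 44 were lower, with a median of -1.47. Under quantile normalization 33 of the 79 were lower and 2 higher, with a median of -0.49. Of 76 mitochondrial ribosomal proteins 57 were lower and 0 higher (median -1.27), and the count fell to 36 lower with median-ratio scaling.

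The proteasome, which degrades tagged proteins, and the Sm and Lsm proteins, which build the splicing snRNPs and RNA decay rings, followed the same direction. Of 37 proteasome subunits 32 were lower and 0 higher (median -1.43), and of 23 Sm and Lsm proteins 18 were lower and 0 higher (median -1.72). Under quantile normalization these became 12 lower and 2 higher (median -0.48) and 13 lower and 0 higher (median -0.71). Psma5, a subunit of the proteasome core, stood at 286 and 271 FPKM in the number-2 libraries, 129 and 128 in number 3 and 0.694, 0.780 and 0.612 in number 4. Snrpg, a member of the Sm ring, stood at 1084 and 1306 FPKM in the number-2 libraries, 825 and 721 in number 3 and 13, 10.2 and 8.53 in number 4. Psma5 shares 54.5% of its windows with other loci. Of 58 translation factors 35 were lower and 2 higher (median -1.05), a balance that became 12 against 12 under quantile normalization. Eef1a1, which brings aminoacyl-tRNA to the ribosome, stood at 5251 and 6333 FPKM in the number-2 libraries, 8734 and 8488 in number 3 and 1589, 1898 and 1809 in number 4, and its difference was -1.98 (SE 0.37, adjusted p = 0.0067).

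Of the 8 largest rises, leaving out rows named Gm or Rik, 3 were small RNAs and the other 5 were rows that were listed at 0 outside number 4 or share sequence with a spliced gene. The pairs and junctions described here were chosen after the values had been seen. A pair joins a single-exon row with the spliced gene that shares most of its windows, at least 5% of them; histones were left out. The sequences below cross an exon junction of the spliced gene, where genomic DNA has an intron, and the single-exon row holds both sides joined. Capitals mark the 5 bases on each side of the junction in the spliced gene, and in the single-exon row any base that differs from it.
Npm3: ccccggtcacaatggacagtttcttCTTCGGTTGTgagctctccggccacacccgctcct
Npm3-ps1: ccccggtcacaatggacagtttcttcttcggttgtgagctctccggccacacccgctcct
Uchl3: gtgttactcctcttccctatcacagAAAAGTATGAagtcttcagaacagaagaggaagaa
Uchl4: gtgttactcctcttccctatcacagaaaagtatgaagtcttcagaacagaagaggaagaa
Tyms: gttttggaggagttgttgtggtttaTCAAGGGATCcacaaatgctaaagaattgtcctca
Tyms-ps: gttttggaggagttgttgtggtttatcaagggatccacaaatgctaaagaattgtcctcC

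Npm3 (chromosome 19, a histone chaperone) and Npm3-ps1 (chromosome 6) are identical over these 60 bases, as are Uchl3 (chromosome 14, a ubiquitin hydrolase) and Uchl4 (chromosome 9), while Tyms (chromosome 5, which makes thymidylate) and Tyms-ps (chromosome 10) differ at 1 base. Across 25 tested pairs, 123 of 174 junctions of the spliced genes were found joined in the single-exon row with at most 6 differing bases among 60, and 24 pairs held at least 1.

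Npm3 stood at 260.4 and 182 FPKM in the number-2 libraries, 151 and 117 in number 3 and 1.47, 3.94 and 1.58 in number 4, a difference of -5.84 (SE 0.33, adjusted p = 3.2e-05). Npm3-ps1 went the other way, with 0.341 and 0 FPKM in the number-2 libraries, 0.825 and 1.76 in number 3 and 30.6, 53.6 and 34.8 in number 4, a difference of 4.61 (SE 0.40, adjusted p = 0.00028). In the number-4 libraries the pseudogene row was above its spliced gene, and in the others far below it. Uchl3 stood at 30.3 and 43.7 FPKM in the number-2 libraries, 52 and 41.6 in number 3 and 12.1, 6.77 and 9.54 in number 4, a difference of -2.03 (SE 0.27, adjusted p = 0.0019). Uchl4 stood at 0.0953 and 0.0574 FPKM in the number-2 libraries, 0 and 0 in number 3 and 17.6, 12.3 and 14.5 in number 4. Tyms stood at 37.5 and 72.7 FPKM in the number-2 libraries, 45.8 and 52.3 in number 3 and 17.4, 14.9 and 23.5 in number 4, a difference of -1.33 (SE 0.20, adjusted p = 0.0028), while Tyms-ps was listed at 0 in all 4 number-2 and number-3 libraries and 9.44, 7.07 and 10.9 FPKM in number 4. None of these rows overlapped between the 2 sets of libraries, but the pairs were chosen after their values had been seen. Uchl4 and Tyms-ps passed the filter only through number 4, which fixed their lack of overlap in advance. No support is drawn from it. Among all tested genes 984 (10.6%) did not overlap on the higher side and 3281 (35.4%) on the lower side.

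**Figure D2:**
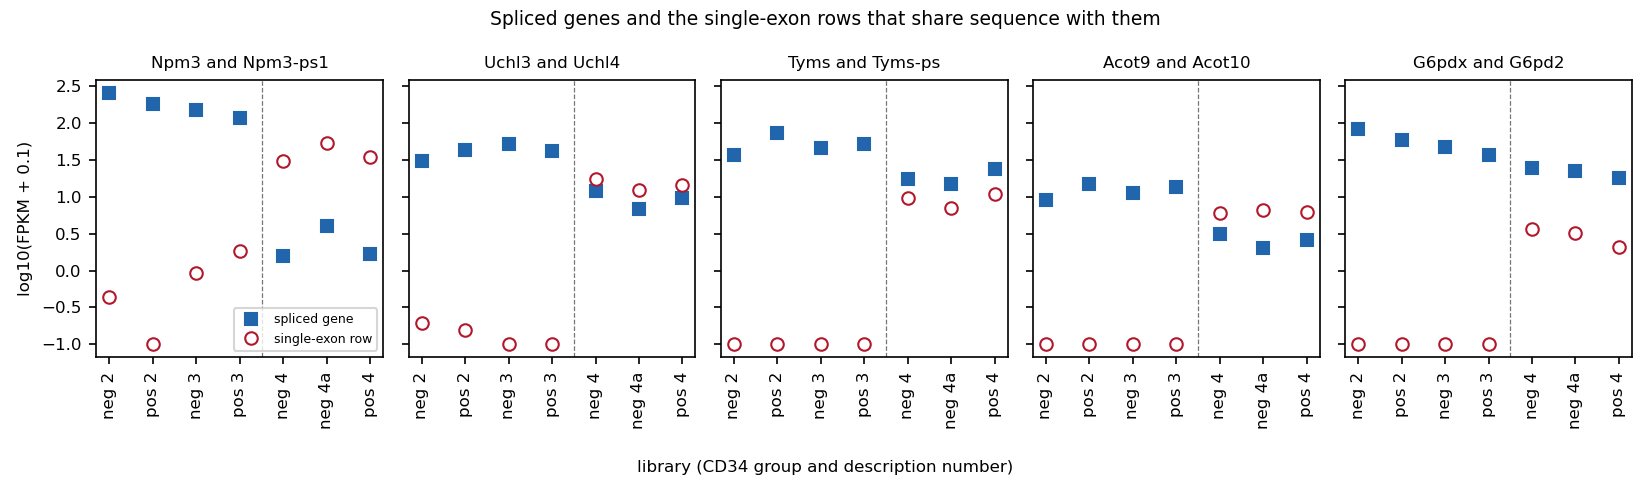
Level (y axis, log10(FPKM + 0.1)) of 5 spliced genes (filled squares) and the single-exon rows that share sequence with them (open circles) in each of the 7 libraries (x axis, CD34 group and description number; the dashed line separates number 4). The 5 pairs were chosen after their values had been seen, and in them the single-exon row is higher and the spliced gene lower in number 4. Of the 25 tested pairs 15 had that pattern, and 3 single-exon rows were lower. Uchl4, Tyms-ps, Acot10 and G6pd2 passed the filter only through number 4.

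Counted without a filter on low values, 37 pairs had both rows above 0 in some library: 20 single-exon rows were higher and 3 lower, while 0 spliced genes were higher and 23 lower, and 14 pairs combined a higher copy with a lower spliced gene. The shares over all genes with no filter were 4.77% higher and 19.7% lower. The filtered table held 25 pairs with 19 higher copies, but 13 of the 25 copies passed the filter only through number 4, so no support is drawn from that count. Rpl34-ps1 went against the pattern: it was 2807 and 2725 FPKM in the number-2 libraries, 1997 and 1832 in number 3 and listed at 0 in all 3 number-4 libraries. Its spliced partner Rpl34 was also lower, at 1571 and 1892 FPKM in the number-2 libraries, 529.6 and 367 in number 3 and 6.64, 9.33 and 6.50 in number 4. The sources used here do not say how reads that match both members of a pair were assigned, and the levels of both are uncertain.

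Csl, a single-exon row that resembles the citrate synthase gene Cs, was listed at 0 in all 4 number-2 and number-3 libraries and 22.6, 22.4 and 22.3 FPKM in number 4. Aldoart1, a single-exon retrogene related to aldolase, was listed at 0 in all 4 number-2 and number-3 libraries and 33.7, 23.7 and 20.3 FPKM in number 4. Tuba3a, a spliced alpha-tubulin gene that shares 33.6% of its windows with other loci, was listed at 0 in all 4 number-2 and number-3 libraries and 99.6, 94.8 and 102 FPKM in number 4. Srsf12, a splicing factor gene with no shared window, was listed at 0 in all 4 number-2 and number-3 libraries and 25.1, 30.8 and 27.9 FPKM in number 4. Csl, Aldoart1, Tuba3a and Srsf12 passed the filter only through number 4. They are among the 8 largest rises, which the naming rule takes only from genes whose sets do not overlap. Their lack of overlap was fixed by that choice, and no support is drawn from it. Among these chosen rows, Srsf12 had no shared window and several exons.

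By class, single-exon rows with at least 5% of windows shared had a median difference of 0.58 (85 rows, 33 higher and 11 lower), of which 19 passed the filter only through number 4. Without the filter the median over 137 rows was 0.11, with 37 higher and 9 lower. These rows include histones and ribosomal proteins. Without both, 41 rows had 23 higher and 9 lower, and 17 of the 41 passed only through number 4. With no filter their median was 0.05 over 90 rows, with 29 higher and 7 lower. Of all tested genes 5.93% were higher and 30.7% lower, and 4.77 and 19.7% with no filter. Rows with several exons and as much shared sequence had a median of -1.04 (978 rows, 54 higher and 541 lower). Rows with several exons and under 5% shared, which make up most of the tested genes, had -0.25 (7954 rows).

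Transcript length went with the difference across the whole table. Genes were cut into 10 equal classes by spliced length. In the class with the shortest transcripts, up to 1168 bases, the median was -1.14, with 59.8% lower and 4.68% higher. In the class with the longest, from 6235 bases, the median was 0.55, with 3.81% lower and 15.1% higher. The median of the shortest class minus that of the longest was -1.68, and it was -1.34 to -1.98 when 1 library was left out. Among genes with no shared window the medians were -0.95 and 0.51. GC content went the opposite way, from 0.54 in the lowest of 10 classes (up to 42.06%) to -0.83 in the highest. The Spearman correlation across 9185 genes was 0.494 with length and -0.519 with GC content; genes share libraries and are not independent replicates.

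Both descriptors showed within each other. Genes with no shared window were cut into 5 classes by each. The shortest class had a median of -0.11 where GC was lowest and -1.11 where it was highest, and the longest class 0.80 and -0.29. A length trend of the same direction also stood between the libraries outside number 4: number 3 minus number 2 had medians from -0.44 in the shortest of the 10 classes to 0.78 in the longest.

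**Figure D3:**
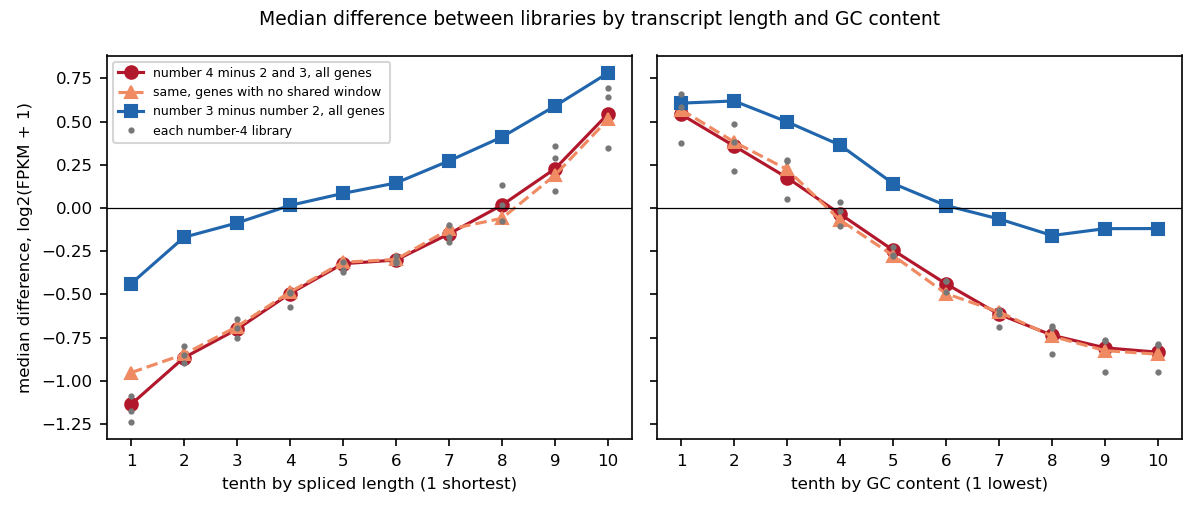
Median difference on the log2(FPKM + 1) scale (y axis) in 10 classes of spliced length (left) and GC content (right), for number 4 minus numbers 2 and 3 over all genes and over genes with no shared window, for each number-4 library (grey points), and for number 3 minus number 2. The medians run from -1.14 to 0.55 with length and from 0.54 to -0.83 with GC content.

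Very long genes were at the higher end. Of 27 giant cytoskeletal and ubiquitin ligase genes, whose transcripts had a median of 12479 bases, 10 were higher and 0 lower (median 1.06), against 5.93% higher in the background. The count was 21 higher with median-ratio scaling and under quantile normalization and 26 when ribosomal protein and small RNA rows were left out, but 3 higher and 1 lower of 30 with no filter. Number 3 minus number 2 had a median of 1.03 for the same list. Akap9, a scaffold of the centrosome and Golgi, stood at 3.63 and 4.63 FPKM in the number-2 libraries, 6.03 and 9.96 in number 3 and 13, 13.1 and 14 in number 4, a difference of 1.16 (SE 0.30, adjusted p = 0.021). Ahnak, a giant scaffold protein, stood at 5.70 and 9.63 FPKM in the number-2 libraries, 14.2 and 20.5 in number 3 and 91.1, 22.5 and 41.7 in number 4. Its 3 number-4 values differed widely and the lowest of them lay just above the highest of the others. Of 230 zinc finger genes 30 were higher and 32 lower, but 62 were higher and 13 lower with median-ratio scaling.

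Of 4 tested nuclear long non-coding RNAs 3 were higher (median 1.53), but 1 of them, Kcnq1ot1, passed the filter only through number 4. With no filter 2 of 6 were higher, with a median of 0.50. Malat1, which is retained in nuclear speckles, stood at 50.9 and 113 FPKM in the number-2 libraries, 52.6 and 80.6 in number 3 and 375, 282 and 379 in number 4, a difference of 2.37 (SE 0.24, adjusted p = 0.00061). Neat1, the scaffold of paraspeckles, stood at 29.6 and 21.7 FPKM in the number-2 libraries, 10.9 and 9.80 in number 3 and 200.2, 58.3 and 40.6 in number 4, a difference of 2.08 (SE 0.56, adjusted p = 0.026). Kcnq1ot1, an imprinted antisense RNA, was low throughout, at 0.223 and 0.261 FPKM in the number-2 libraries, 0.186 and 0.169 in number 3 and 1.34, 1.97 and 1.09 in number 4. Pvt1, the remaining one, stood at 4.32 and 2.88 FPKM in the number-2 libraries, 3.99 and 3.31 in number 3 and 3.83, 5.26 and 2.72 in number 4 and its 95% interval was -0.47 to 0.47. Malat1 and Neat1 did not overlap between the sets, as was so on the higher side for 10.6% of all tested genes.

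Rows of small non-coding RNAs without a poly(A) tail took up a large share of number 4, much of it through single rows. Small nucleolar, small nuclear and microRNA rows held 0.0700, 0.137, 0.303 and 0.139% of summed FPKM in numbers 2 and 3 and 39.5, 16.0 and 8.09% in number 4 (two-sided exact permutation test, p = 0.0571; adjusted p = 0.0571 over 6 shares). Most of it in the CD34-negative number-4 libraries was 1 row, Mir703, a microRNA with the mature sequence below, in which capitals mark the seed, bases 2 to 8 (RefSeq).
Mir703: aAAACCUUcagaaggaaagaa

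Snora31, the top row of the CD34-positive number-4 library, held 3.95% of its summed FPKM. Mir703 held 34.6 and 13.2% of summed FPKM in the CD34-negative number-4 libraries. It stood at 211 and 0 FPKM in the number-2 libraries, 1493 and 412 in number 3 and 149618, 35989 and 0 in number 4, and the difference was 2.48 (SE 2.82, adjusted p = 0.51); the sets overlapped, since it was listed at 0 in the number-4 CD34-positive library. FPKM divides by length, so for very short rows a few fragments give a high value. Snora15, a box H/ACA guide, is shown whole with its last ACA, 3 bases before the end, in capitals.
Snora15: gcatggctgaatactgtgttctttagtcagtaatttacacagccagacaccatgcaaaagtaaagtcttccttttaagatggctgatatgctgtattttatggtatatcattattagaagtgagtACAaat

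Snora15 stood at 0 and 0 FPKM in the number-2 libraries, 68.2 and 0 in number 3 and 9728, 1210.0 and 4594 in number 4, a difference of 10.08 (SE 1.53, adjusted p = 0.0031). Snord22 stood at 31.7 and 207 FPKM in the number-2 libraries, 28.7 and 67.6 in number 3 and 8779.6, 1123 and 1853 in number 4, a difference of 5.57 (SE 0.86, adjusted p = 0.0034). Rmrp stood at 2.75 and 61.1 FPKM in the number-2 libraries, 2.70 and 25.6 in number 3 and 286, 286 and 147 in number 4, a difference of 4.51 (SE 0.85, adjusted p = 0.007). These 3 were higher in every number-4 library than in any other. They are the small RNAs among the 8 largest rises, which the naming rule takes only from genes whose sets do not overlap. Their lack of overlap was thus fixed by the choice and cannot be set against the 10.6% of all tested genes. The direction was not shared by all small RNAs: Snora64 stood at 40.05 and 115 FPKM in the number-2 libraries, 61.3 and 69.8 in number 3 and listed at 0 in all 3 number-4 libraries. Of 17 tested small nucleolar and small nuclear RNAs 4 were higher and 2 lower; 1 of the 17 passed the filter only through number 4 and 3 only through numbers 2 and 3, and with no filter 6 of 29 were higher and 1 lower. The median of the 17 was 0.67. By library it was 0.39, 3.45 and -0.94 in those described as 4, 4a and CD34-positive 4. Over all tested genes those medians were -0.26, -0.34 and -0.31. Rpph1 was not called, with a difference of 2.71 (SE 1.08, adjusted p = 0.088).

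Histone genes were mixed. Of 62 replication-dependent histone symbols listed, 59 were not repeated in the table and could enter the tests. Of 53 tested replication-dependent histones 10 were higher and 2 lower (median 0.25), and 2 of the 53 passed the filter only through number 4; without the filter 8 of 57 were higher and 2 lower. The stem-loop was searched as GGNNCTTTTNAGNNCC on the transcript strand, and 53 of 19870 matched rows hold it (0.267%), 34 of them tested histones of the list. Examples are shown with the fixed letters in capitals, next to the AATAAA signal of H2afj, a histone variant, near its end.
Hist2h3c1: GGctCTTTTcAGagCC
Hist1h4i: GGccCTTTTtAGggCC
H2afj: aaaggacaAATAAAgaatatat

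Hist2h3c1, an H3 gene that passed the filter only through number 4, stood at 0.502 and 0.469 FPKM in the number-2 libraries, 0 and 0 in number 3 and 9.59, 12.2 and 7.44 in number 4. Hist1h4i, an H4 gene with the same kind of stem-loop, went the other way with 42.7 and 43.7 FPKM in the number-2 libraries, 35.9 and 43.3 in number 3 and 13.5, 14.6 and 10.3 in number 4, a difference of -1.64 (SE 0.20, adjusted p = 0.0013). The 34 histones with the stem-loop had a median of -0.07 with 5 higher and 2 lower. The 17 in which neither signal was found had 0.58 with 4 higher and 0 lower. The search read a representative annotated transcript of each gene, so a missing match does not show that the message lacks the signal. Of all tested genes 5.93% were higher and 30.7% lower. The median share of windows found elsewhere also differed, at 39.8% with the stem-loop and 79.7% with neither signal found. The 31 histones with under 50% shared had a median of -0.02, and the 22 with at least 50% had 0.61. The part of the end signal and that of shared sequence were not tested. Of 9 polyadenylated histone variants 0 were higher and 2 lower (median -0.92, which was 0.51 under quantile normalization). H2afz, a variant of H2A, stood at 1564 and 1717 FPKM in the number-2 libraries, 1680.3 and 1581 in number 3 and 109, 101 and 99.8 in number 4, a difference of -3.98 (SE 0.20, adjusted p = 2.3e-05), and H2afj had -1.16 (SE 0.20, adjusted p = 0.0047).

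Of 24 replication and G1/S genes 14 were lower and 1 higher (median -0.96), which became 6 lower and 4 higher when ribosomal protein and small RNA rows were left out of the totals; Pcna, the sliding clamp of DNA polymerase, stood at 374 and 509 FPKM in the number-2 libraries, 480.5 and 484 in number 3 and 63.8, 81 and 68.5 in number 4. Of 22 mitosis and G2/M genes 7 were higher, 2 lower and 13 not called (median 0.44); the difference between these lists was not tested. Mki67, a coat protein of mitotic chromosomes with a transcript of 10061 bases, stood at 34.3 and 36.4 FPKM in the number-2 libraries, 21.8 and 46.5 in number 3 and 103, 134 and 112 in number 4, a difference of 1.80 (SE 0.25, adjusted p = 0.0024). Ccnb1, the cyclin of mitotic entry, was lower, at 64.6 and 100.2 FPKM in the number-2 libraries, 71.2 and 77.2 in number 3 and 17.4, 20.5 and 26.2 in number 4. The 9 mitosis members with no shared window had a median of -0.20. Of 20 immediate early and stress genes 6 were higher and 0 lower (median 0.67), but 2 of 24 with no filter. Their median was 1.53 in the library described as 4, 0.18 in 4a and 0.51 in the CD34-positive number-4 library. Egr3, a transcription factor switched on by growth signals that passed the filter only through number 4, stood at 0.660 and 0.189 FPKM in the number-2 libraries, 0.974 and 0.834 in number 3 and 60.2, 12.7 and 21 in number 4, with the highest value in the CD34-negative library described as 4.

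Among the usual reference genes the outcome differed. Gapdh, a glycolytic enzyme, stood at 4783 and 6001 FPKM in the number-2 libraries, 2614 and 2196 in number 3 and 442, 526 and 649 in number 4, a difference of -2.72 (SE 0.44, adjusted p = 0.0039), and 8 of 16 glycolysis genes were lower and 0 higher, which became 3 lower and 1 higher with median-ratio scaling and 1 lower and 2 higher under quantile normalization. Actb had -0.96 (SE 0.33, adjusted p = 0.059) and turned to 1.11 under quantile normalization. Tbp, the TATA-binding protein, stood at 18.3 and 21.1 FPKM in the number-2 libraries, 17.1 and 17.4 in number 3 and 16.1, 19.5 and 17.2 in number 4, with an interval of -0.49 to 0.37. Hprt had an interval of -0.08 to 0.91.

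Lineage genes were described from 7 lists: erythroid regulators, globins and heme synthesis, mast cell, neutrophil and monocyte, stem and progenitor, megakaryocyte and platelet, and lymphoid. In bulk samples, fewer cells of a type and less RNA per cell cannot be told apart. Of 109 tested lineage genes 2 (1.83%) were higher and 15 (13.8%) lower in number 4, against 5.93 and 30.7% of all tested genes, and 92 were not called. Those counts became 9 higher and 3 lower with median-ratio scaling, and 22 higher and 0 lower when ribosomal protein and small RNA rows were left out of the totals. Over all tested genes the shares were 15.5% higher and 15.7% lower with median-ratio scaling, and 30.9% higher and 7.6% lower with those rows left out. A missing call is no sign of equality: the median standard error was 0.46 for lineage genes and 0.26 for all tested genes, and the median absolute difference was 0.62 against 0.64. The CD34 groups, by contrast, differed by a median of 1.12 in absolute size for lineage genes and 0.22 for all genes, although 0 genes passed the adjusted test for CD34 (950 genes, 10.3%, at an unadjusted p under 0.05).

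A stricter description counts genes whose whole 95% interval lies within 1 log2 unit of 0. Of the 109 lineage genes 12 (11%) met it, against 2724 (29.4%) of all tested genes. Tal1, a master regulator of blood formation, stood at 143 and 135 FPKM in the number-2 libraries, 160.0 and 141 in number 3 and 123, 131 and 119.8 in number 4, with an interval of -0.63 to 0.16. Its 3 number-4 values were the lowest of the 7, by a margin that the test did not call. The same order held for 35.4% of all tested genes. Tfrc, the transferrin receptor, stood at 75.9 and 84.8 FPKM in the number-2 libraries, 71.1 and 67 in number 3 and 62.7, 126 and 65.1 in number 4, with an interval of -0.58 to 0.73. Gata2, a stem and mast cell factor, stood at 260.2 and 79.96 FPKM in the number-2 libraries, 242 and 120.1 in number 3 and 415, 264 and 56.8 in number 4, with an interval of -0.83 to 0.69 by number, while its CD34 difference was -1.82 (SE 0.33). In each number Gata2 was lower in the CD34-positive library. Its number-4 values lay above the others among CD34-negative libraries and below them among CD34-positive ones, so its small difference joins opposite directions. The Gata2 interval stayed within 1 in 9 of 19 alternatives.

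The other 9 were Fech (the last enzyme of heme synthesis, -0.78 to 0.11), Csf2ra (a GM-CSF receptor chain, -0.46 to 0.80), Fcgr3 (an IgG receptor, -0.65 to 0.58), Gfi1 (a myeloid repressor, -0.88 to 0.48), Pbx3 (a Hox cofactor, -0.51 to 0.55), Cd9 (a tetraspanin, -0.84 to 0.24), Gp1ba (a platelet glycoprotein, -0.28 to 0.93), Ikzf1 (Ikaros, -0.36 to 0.92) and Ltb (lymphotoxin beta, -0.85 to 0.12). Csf2ra, Gfi1, Pbx3 and Ltb were below 6 FPKM in every library, where log2(FPKM + 1) compresses differences. Each of the 12 left the bound of 1 under some alternative: 8 stayed within it with median-ratio scaling, 5 under quantile normalization, 2 when ribosomal protein and small RNA rows were left out of the totals, and 5 without the CD34-positive number-4 library. Under quantile normalization 5 of the 12 were called, and 6 with the rows left out.

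**Figure D4:**
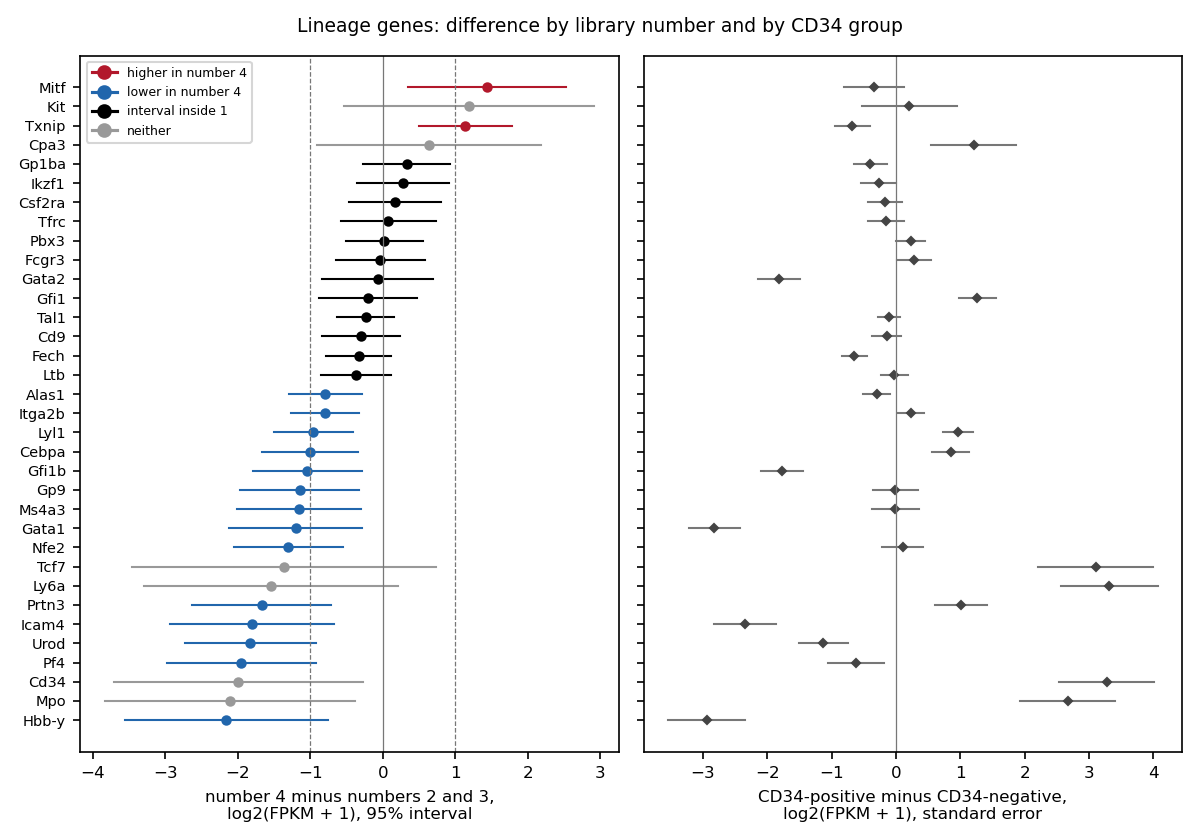
Lineage genes that were called (leaving out 1 gene), that had an interval within 1, or that the naming rule always includes. The left panel gives the difference by library number with its 95% interval and the right panel the CD34-positive minus CD34-negative difference with its standard error, both on the log2(FPKM + 1) scale; Gata1 and Hbb-y are low in both panels, and Tal1 lies near 0 in both.

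The 15 lower lineage genes came from several lineages. Of 20 erythroid regulators and membrane genes 4 were lower (median -0.79), and of 16 globin and heme genes 4 were lower (median -0.61), against 30.7% of all tested genes. The erythroid median was -1.54, -0.36 and -0.39 and the globin and heme median -1.13, -0.59 and -0.40 in the libraries described as 4, 4a and CD34-positive 4, lowest in the first. Gata1, the main erythroid factor, stood at 167 and 16.3 FPKM in the number-2 libraries, 67.1 and 24 in number 3 and 55.8, 70.9 and 4.61 in number 4, a difference of -1.20 (SE 0.39, adjusted p = 0.048). Hbb-y, an embryonic globin, stood at 178 and 8.89 FPKM in the number-2 libraries, 37.7 and 11.8 in number 3 and 9.68, 34.1 and 1.37 in number 4, a difference of -2.16 (SE 0.60, adjusted p = 0.027). Both followed the CD34 group within each number, being lower in the CD34-positive library, and their 2 sets overlapped. With median-ratio scaling 0 of the erythroid regulators were called.

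Nfe2, an erythroid and megakaryocyte factor, stood at 117 and 95.8 FPKM in the number-2 libraries, 150.3 and 141 in number 3 and 30.1, 61.3 and 63.8 in number 4, a difference of -1.30 (SE 0.32, adjusted p = 0.018). Pf4, a platelet chemokine, stood at 699 and 478 FPKM in the number-2 libraries, 329 and 165 in number 3 and 91.6, 134 and 83.9 in number 4, a difference of -1.96 (SE 0.44, adjusted p = 0.013). For both, all number-4 values lay below all the others, as they did for 3281 (35.4%) of all tested genes. Of 11 neutrophil and monocyte genes 3 were lower (median -0.84); Prtn3, a granule protease, stood at 8.32 and 9.13 FPKM in the number-2 libraries, 9.25 and 18.3 in number 3 and 0.502, 2.15 and 6.35 in number 4. Of 14 megakaryocyte genes 3 were lower (median -0.01), of 25 stem and progenitor genes 1 was lower and 1 higher (median -0.07), and of 8 lymphoid genes 0 were called (median -0.07). The counts of these lists, neutrophil and monocyte genes included, stand against 30.7% lower and 5.93% higher of all tested genes.

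Of 19 mast cell genes 1 was higher and 0 lower (median 0.45), against 5.93 and 30.7% of all tested genes. The median was 2.04 in the library described as 4, -0.07 in 4a and 0.23 in the CD34-positive number-4 library. The number higher was 4 with median-ratio scaling, 9 under quantile normalization and 6 when ribosomal protein and small RNA rows were left out, and 0 with no filter. Over all genes, the shares higher in these settings were 15.5, 16.5, 30.9 and 4.77%, in the same order. Mitf, the mast cell factor, stood at 2.27 and 2.40 FPKM in the number-2 libraries, 5.61 and 4.63 in number 3 and 25.3, 7.61 and 8.09 in number 4, a difference of 1.44 (SE 0.47, adjusted p = 0.047). Its highest value was in the CD34-negative library described as 4. Cpa3, a granule protease, stood at 451 and 2219.5 FPKM in the number-2 libraries, 1655 and 1936 in number 3 and 3134, 624 and 3044 in number 4, and its interval was -0.91 to 2.19. Mast cell rows held 0.888, 0.716, 1.16 and 0.877% of summed FPKM in numbers 2 and 3 and 5.69, 2.49 and 2.39% in number 4 (two-sided exact permutation test, p = 0.0571; adjusted p = 0.0571 over 6 shares). The part of the smaller ribosomal protein total in this share was not tested beyond leaving those rows out, which gave 1.45, 1.10, 1.67 and 1.23% against 5.84, 2.60 and 2.49%. Summed FPKM over all rows was 432027, 272109 and 260352 in number 4 against 551669 to 733955 in the others. A share can therefore be larger without a larger sum of mast cell rows, and the part of the lower totals was not tested.

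Cd34 itself stood at 19.3 and 256 FPKM in the number-2 libraries, 91.8 and 147 in number 3 and 2.67, 6.02 and 153 in number 4; its difference by number was -1.99 (SE 0.73, adjusted p = 0.069) and its CD34-group difference 3.27 (SE 0.73). Ly6a, which encodes Sca-1, stood at 11.9 and 208 FPKM in the number-2 libraries, 73.2 and 132 in number 3 and 8.66, 2.41 and 143 in number 4. Both were highest in the CD34-positive library of each number, and their number-4 CD34-negative values were the lowest of all 7 libraries. No gene passed the test of whether the number difference depends on the CD34 group (limma, 0 of 9259 at an adjusted p under 0.05, and 17, 0.184%, at an unadjusted p under 0.05).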

How the data were processed

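RNA-seq of 7 libraries was deposited as 1 table of FPKM values per gene symbol; the submitters' processing notes list TopHat, TopHat2 and Cuffdiff beside 2 builds, mm9 and mm10, and coordinates are left out for that reason. FPKM holds no read counts, so depth is unknown, and how reads that match several places were treated is not given. The table had 20464 rows; 322 rows with a repeated symbol (105 symbols) were left out. Library columns were matched by their description names. limma 3.58.1 (R 4.3.3; trend, not robust) was fitted to log2(FPKM + 1) for genes at 1 FPKM or more in at least 3 libraries, with library number and CD34 group as terms, and adjusted by Benjamini-Hochberg; the code was tested on simulated data. Length, GC content and shared 50-base windows came from GENCODE vM21 transcripts (mm10), matched by symbol for 19870 of 20142 rows (98.65%).

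Named genes were taken from a fixed rule: the 8 largest rises and falls that do not overlap between sets and average at least 5 FPKM in the higher set, up to 4 members of each class list and 3 of each lineage list by p, up to 3 lineage members with the interval nearest 0, 2 members of each other-cell list, and a set of fixed genes; 155 genes met it and a part of them is described; 1 called lineage gene is not reported here by name. Snora31, Rpl34, Uchl3, Uchl4, Tyms, Tyms-ps, Npm3 and the other members of pairs were chosen after their values were seen. The members and lists were chosen with earlier results of these data known. Alternatives were another pseudocount (0.1), filters (none, 5 FPKM), 3 scalings, other references and covariates, and leaving out each library. Libraries of the same number deviated together across the CD34 groups (correlations of 0.915, 0.703, 0.823 and 0.846), and less across numbers 2 and 3 (0.216 and 0.372). Numbers 2 and 3 therefore also differ from each other, while the fit treats their 4 libraries as independent.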

Additional observations from a re-analysis of the deposited data

Results flagged for a closer look

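Among the 4 number-2 and number-3 libraries, 5 of 116 genes had 1 library far from the other 3 by Dixon's criterion, which chance meets in about 1 of 20 groups. Cenpf was 9.71 FPKM in the number-3 CD34-positive library and 4.64 to 4.72 in the others. Snora15 was 68.2 FPKM in the number-3 CD34-negative library and listed at 0 in the others. Hist1h4i was 35.9 FPKM in the number-3 CD34-negative library, the low one. Hbb-y was 178 FPKM in the number-2 CD34-negative library. Prtn3 was 18.3 FPKM in the number-3 CD34-positive library.

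Rows with a repeated symbol took no part in the tests. Of the 105 repeated symbols 3, all histones, were at 5 FPKM or more in every number-4 library and under 1 FPKM in every other. Only this direction was searched, so symbols with the opposite pattern were not counted. The lowest number-4 value was 797 FPKM for Hist1h2ap, 15.5 FPKM for Hist1h4n and 10.3 FPKM for Hist2h2aa2.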

How the results depend on the processing

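Over 103 single-gene differences the alternatives gave 1892 values, of which 31 changed sign; 53 of 84 called genes kept call and direction in every alternative tried and 5 changed sign in some. Of the 549 higher and 2842 lower genes the counts moved to 1439 and 1455 with median-ratio scaling, 1529 and 1478 under quantile normalization and 2867 and 706 when rescaled without ribosomal protein and small RNA rows. The higher count alone moved to 273 with the 2 CD34-negative number-4 libraries averaged, 271 with an interaction term and 2124 with number 2 only as reference. Leaving out 1 library gave 69 to 957 higher and 995 to 2832 lower, 0 to 196 higher and 0 to 72 lower for CD34 (the most without CD34-negative replicate 1), and 0 to 0 for the interaction. Number 2 only as reference gave 159 and 72 for CD34, and no filter gave 3 higher for the interaction. The difference in share ran from -31.2 to -27.9 percentage points for ribosomal proteins, -2.51 to -1.87 for oxidative phosphorylation and 11.9 to 27.6 for small RNA rows. The shortest-minus-longest contrast ran from -1.98 to -1.34, and was -1.39 by coding length, -1.31 by genomic span and -1.22 under quantile normalization.

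No paired analysis was possible because the description numbers are what is compared; with a replicate block by description number, number 4 against number 2 gave 2275 higher genes, 23 higher lineage genes and 0 called genes for CD34.

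Lineage calls, 2 higher and 15 lower, became 1 and 8 with no filter, 9 and 3 with median-ratio scaling, 22 and 4 under quantile normalization, 22 and 0 when rescaled, 1 and 8 with the averaged libraries, 22 and 24 with number 2 only and 1 and 6 with an interaction term; number 3 only gave 1 higher and no CD34 covariate 8 lower. Leaving out 1 library gave 1 to 6 higher, 2 to 21 lower and 5 to 15 with the interval within 1.

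Of 513 list medians relative to all tested genes 17 changed sign. Under quantile normalization they were 0.49 for polyadenylated histone variants, 0.16 for chaperones, 0.13 for glycolysis and -0.025 for lymphoid genes. With number 3 only they were 0.089 for globins and heme, -0.17 for stem, -0.016 for megakaryocyte and -0.30 for lymphoid genes. With no filter they were -0.12 for snoRNA hosts, -0.042 for stem and -0.039 for lymphoid genes, and for snoRNA hosts they were -0.21 with number 2 only and -0.22 with the replicate block. Leaving out 1 library gave -0.15 to 0.48 for snoRNA hosts, -0.71 to 0.083 for globins and heme and -0.12 to 0.84 for lymphoid genes.

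Single genes changed sign under quantile normalization (Rpl4 1.31, H3f3b 1.57, Cs 0.34, Gfi1b 0.0060, Ctsg 1.07, Itga2b 0.47, Tubb5 1.13, Actb 1.11, Pvt1 -0.061) and when rescaled (H3f3b 0.29, Cs 0.063, Ctsg 0.44, Itga2b 0.077). With number 3 only, Rpl3l was -0.11, Mir703 -0.51, Srgn -0.064, Runx1 -0.041, B2m -0.47 and Pvt1 -0.010. Leaving out 1 library gave -0.15 to 0.53 for Rpl3l, -0.12 to 0.095 for Pvt1, -0.093 to 0.64 for Fcer1g, -0.98 to 0.22 for Ctsg and -0.28 to 0.71 for B2m. B2m was -0.066 with no CD34 covariate. Pvt1 was -0.0045 with a pseudocount of 0.1 and -0.021 with the averaged libraries and with an interaction term. The cause was not tested. Depth is unknown from FPKM, so counting error could not be set beside these values.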

Other observations

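The 3 numbers are written differently in the table. The number-3 columns hold 5413 and 5002 values with more than 4 decimals, whereas the number-2 and number-4 columns hold 0. Of the 105 repeated symbols, 13 and 17 have rows that differ in the number-2 columns, and 0 in the number-3 and number-4 columns.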
